A study of Mus musculus with 2 samples.

Results

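A set of 46 genes of blood vessels was followed in the embryonic mouse forebrain: 22 genes of endothelial identity, 10 genes of the blood-brain barrier, 4 vascular growth factor genes and 10 genes of mural cells, which are the pericytes and smooth muscle cells around the vessel. The members were listed by symbol, not by a cut on their values, but with earlier results of these data known. The list is therefore not independent of the data. The division into classes follows the known roles of the genes. All 46 were found among the 43346 mouse gene rows of the deposited tables, of which 21474 are protein-coding genes matched to GENCODE M21. The study holds 2 total RNA-seq libraries of forebrain at embryonic day 13.5, of strain B6NCrl with embryos of either sex pooled, each made from 10 ng of RNA. Both libraries form 1 group with no treatment, mutation or second tissue. The labels call them biological replicates, from separate pieces of tissue under a common donor code. No condition can therefore be tested, no p-values are given, and every SD is the spread between these libraries (n = 2), part of which may be technical.

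Endothelial cells line every vessel, and those of the brain grow in from a plexus on its surface, drawn by vascular endothelial growth factor from the neural tissue. In the brain they also acquire a barrier: tight junctions seal the gaps between cells, transporters carry nutrients in and drugs out, and openings in the vessel wall are lost. Wnt7 proteins from neural progenitors, read by Adgra2 and Reck on the endothelium, start that programme, while pericytes recruited through platelet-derived growth factor wrap the young vessel.

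The libraries held 35378462 estimated counts in replicate 1 and 36793284 in replicate 2, and the members had between 24 and 1983 counts per library. The counts of the libraries differed by more than sampling noise, with a chi-square of 11.1 per degree of freedom over 17456 genes. Genes of neurons (median 309 TPM) and of neural progenitors (median 74.2 TPM) were far above every vascular class in this tissue. TPM is a relative abundance corrected for transcript length, so levels of different genes can be set side by side. In tissue RNA of this kind fewer cells of a type and less RNA per cell cannot be told apart.

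Vascular genes were broadly present at modest levels. Of the 46 members, 40 (87.0%) reached 1 TPM in both libraries, where 59.0% of all protein-coding genes did, and 12 (26.1%) reached 10 TPM, where 38.9% of all did. Their median was 4.88 ± 0.502 TPM (SD of the library medians, n = 2). The median of all 21474 protein-coding genes was 3.92 TPM, and of those at 1 TPM or more it was 20.1 TPM. The members thus sat near the middle of all coding genes and below the middle of the expressed ones, over a 66.5-fold range of mean TPM from Egfl7 to the efflux pump gene Abcb1a. By the posterior mean of TPM, a second estimate in the files, the range was 49.5-fold and its low end was Des, with 12 members below Abcb1a.

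By class, barrier genes had a median of 7.55 ± 0.0884 TPM and endothelial identity genes one of 6.85 ± 0.293 TPM, whereas mural genes stood at 2.38 ± 0.357 TPM and the ligands at 2.13 ± 0.446 TPM. Of the identity genes 21 of 22 reached 1 TPM in both libraries, of the barrier genes 8 of 10, of the mural genes 7 of 10 and of the ligands 4 of 4. On the log2(TPM + 1) scale the mural median lay below the identity median in both libraries, at a difference of -1.22 ± 0.099. The barrier median differed from it by -0.03 ± 0.052, within the spread between libraries. The barrier median rests on a gap in the middle of the class: 5 genes were at 11.1 TPM or more and the other 5 at 3.93 TPM or less, and without Plvap the median was 3.81 TPM.

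**Figure D1:**
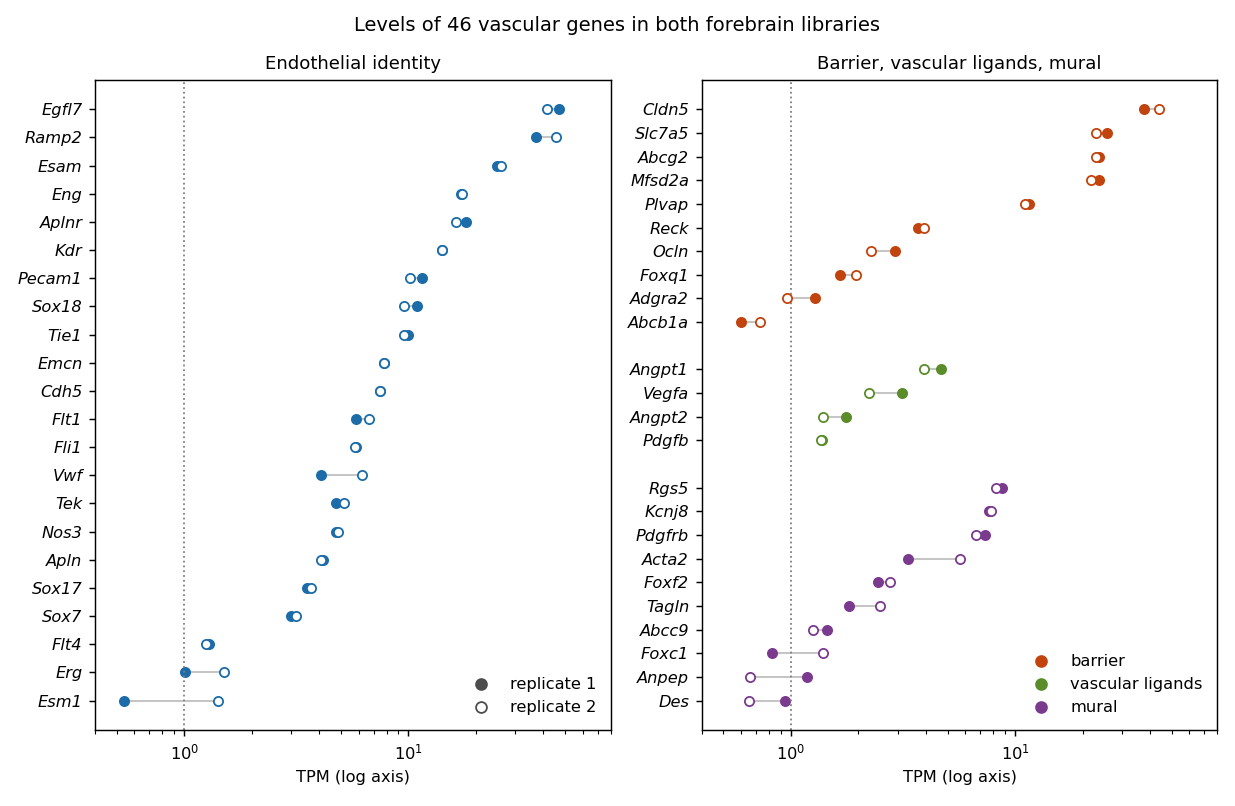
Level of each of the 46 genes in TPM on a log axis, with filled points for replicate 1, open points for replicate 2 and a dotted line at 1 TPM. In most rows both points lie close together, Egfl7, Ramp2 and Cldn5 lead, the barrier class splits between Plvap and Reck, and Esm1, Acta2, Foxc1 and Anpep have the widest gaps.

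Among the surface and secreted proteins of endothelium, Egfl7, a secreted matrix protein of growing vessels (chromosome 2, 26580014 to 26593120, mm10), had the highest mean of the members, with 47.0 and 41.4 TPM in replicates 1 and 2. Ramp2, which makes a receptor for adrenomedullin, had 37.1 and 45.8 TPM. In replicate 2 both Ramp2 and the barrier gene Cldn5 (43.8 TPM) were above Egfl7, so the order at the top is not fixed. Counting protein-coding transcripts alone, Egfl7 had 28.2 and 27.2 TPM, below Cldn5 in both libraries. Esam, an adhesion molecule of endothelial junctions, had 24.9 and 25.9 TPM, and Eng, a co-receptor for TGF-beta ligands, had 17.1 and 17.4 TPM. The junctional adhesion gene Pecam1 followed with 11.6 and 10.2 TPM. The sialomucin gene Emcn, a surface protein of veins and capillaries, had 7.81 and 7.77 TPM, and Cdh5, the cadherin that joins endothelial cells, had 7.45 and 7.46 TPM. Emcn and Cdh5 thus agree between libraries to within 1.1-fold, as did 20 of the 39 members with a mean count of at least 100 (51.3%) and 50.1% of all protein-coding genes with that count. Nos3, the endothelial nitric oxide synthase, had 4.74 and 4.87 TPM. Vwf, the clotting factor carrier stored in endothelium and platelets, had 4.06 and 6.24 TPM.

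The receptors were led by Aplnr, the receptor for apelin, with 18.2 and 16.3 TPM in replicates 1 and 2, and by Kdr, the main VEGF receptor (chromosome 5, 75932827 to 75978458, mm10), with 14.1 TPM in each. Kdr had 1824 and 1983 counts, the most of any member on the mean, and its levels differed by 1.002-fold. Tie1, an orphan receptor that works with Tek, had 10.0 and 9.55 TPM, while Tek, the angiopoietin receptor, had 4.75 and 5.16 TPM. Flt1, a VEGF receptor that largely acts as a trap, had 5.82 and 6.67 TPM, and Flt4, the receptor for VEGF-C, had 1.29 and 1.25 TPM. The ratio of TPM of Kdr to Flt4 was 10.9 and 11.3, and that of Kdr to Flt1 was 2.42 and 2.11, so the order Kdr, Flt1, Flt4 held in both libraries.

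Among the transcription factors, the SOX group F genes were all present, and Sox18 led them in both libraries. Sox18 had 10.9 and 9.52 TPM in replicates 1 and 2, Sox17 had 3.54 and 3.66 TPM, and Sox7 had 3.01 and 3.15 TPM. The ETS factor gene Fli1 had 5.85 and 5.78 TPM. Its relative Erg, on 61 and 72 counts only, had 1.01 and 1.51 TPM. Of the tip cell genes, Apln, the ligand of Aplnr, had 4.17 and 4.06 TPM. Esm1, a secreted proteoglycan of tip cells, had 0.54 and 1.42 TPM on 24 and 69 counts, the widest relative gap of any member at 2.63-fold, and its deposited intervals of TPM did not overlap. Such an interval is given by the files for each gene and library, at a level that is not stated.

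The choice of members did not use promoter sequence. A motif of ETS factors was found there in most of the identity genes that could be searched. ETS factors bind a GGAA core, searched here as CAGGAA or CCGGAA on both strands in the 250 bases before each RefSeq start (GRCm38.p6). RefSeq windows were matched for 26 of the 46 members. CAGGAA or CCGGAA was present in 8 of 11 identity genes, 2 of 6 barrier genes, 4 of 8 mural genes and the 1 ligand gene. Of all 32851 windows, 35.1% had it. For every motif searched, a member counted if any of its windows had the letters, whereas the percentage is per window. A gene with several windows has more chances, so these shares are not like for like. Singly, CAGGAA was in 12 members and 25.7% of windows, and CCGGAA in 3 members and 12% of windows. The SOX motif ACAAAG was in 6 members (16.5% of windows) and the forkhead motif GTAAACA in 1 member, Abcb1a (3.17% of windows). These are matches of letters, not measured binding. The stretches below show, for contrast, Kdr and Emcn with their matches in capitals, and Cldn5, the highest barrier gene, which has none of the ETS letters in this window. They are written on each gene's own strand and stop before the first base of the GENCODE M21 gene: chr5:75978459-75978705 (minus strand), chr3:137340828-137341066 (plus) and chr16:18776597-18776846 (plus).
Kdr: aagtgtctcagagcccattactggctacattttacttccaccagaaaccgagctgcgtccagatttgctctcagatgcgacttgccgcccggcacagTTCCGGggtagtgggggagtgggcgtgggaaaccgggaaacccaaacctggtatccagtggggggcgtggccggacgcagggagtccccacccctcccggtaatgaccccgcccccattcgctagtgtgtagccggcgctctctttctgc
Emcn: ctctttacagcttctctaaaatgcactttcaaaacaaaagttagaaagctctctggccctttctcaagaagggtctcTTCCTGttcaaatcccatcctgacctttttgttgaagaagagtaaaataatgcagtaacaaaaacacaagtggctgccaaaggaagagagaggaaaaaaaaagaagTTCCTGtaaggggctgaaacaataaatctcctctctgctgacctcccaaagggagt
Cldn5: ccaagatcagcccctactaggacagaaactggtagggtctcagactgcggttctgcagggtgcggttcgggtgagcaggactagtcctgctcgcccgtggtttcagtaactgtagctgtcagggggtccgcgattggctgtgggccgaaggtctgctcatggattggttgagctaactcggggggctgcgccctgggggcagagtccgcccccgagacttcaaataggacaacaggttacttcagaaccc

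Of the barrier genes, Cldn5, the claudin of brain tight junctions (chromosome 16, 18776847 to 18778262, mm10), was highest with 37.6 and 43.8 TPM in replicates 1 and 2, on 1098 and 1395 counts. It was 1.17-fold higher in replicate 2, and the deposited intervals (34.5 to 38.8 TPM in replicate 1, 40.6 to 45.1 TPM in replicate 2) did not overlap. Ocln, the other junction protein of the list, had 2.92 and 2.27 TPM, so Cldn5 exceeded Ocln 12.9-fold and 19.3-fold.

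The transporters formed a tight group, with 1 exception. Slc7a5, the large neutral amino acid carrier, had 25.7 and 23.1 TPM, the efflux pump Abcg2 had 23.6 and 22.9 TPM, and Mfsd2a, the lysophospholipid carrier that keeps vesicle traffic low in brain endothelium, had 23.7 and 21.9 TPM. The ranges of these genes overlapped. Slc7a5 and Abcg2 are also made outside vessels, and their cell of origin was not tested. Abcb1a, the P-glycoprotein gene of mature barrier vessels, had 0.6 and 0.73 TPM. Its counts (59.0 and 76.5) are not whole, so reads were shared with other features, and its deposited interval of 0.542 to 5.18 TPM in replicate 1 is wide. Abcg2 exceeded Abcb1a 39.3-fold and 31.4-fold by TPM, but 11.3-fold and 10.9-fold by the posterior mean of TPM, which put Abcb1a at 2.25 and 2.2, so the size of this gap is not fixed.

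Plvap, the diaphragm protein of openings and vesicles that leaky and immature vessels carry, had 11.6 and 11.1 TPM. It was read at 0.488 and 0.505 of the TPM of Mfsd2a, and Cldn5 exceeded it 3.25-fold and 3.96-fold. Plvap, Cldn5 and Mfsd2a were thus all above 10 TPM in both libraries. Reck, the anchored protein that presents Wnt7, had 3.68 and 3.93 TPM. Adgra2, its partner receptor, had 1.28 and 0.96 TPM. Foxq1, a forkhead factor of brain endothelium, had 1.66 and 1.95 TPM.

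The Wnt pathway in which this pair of receptors acts was present as RNA in the same libraries. All 11 genes of a list of that pathway reached 1 TPM in both libraries, with a median of 11.02 ± 2.11 TPM, led by the beta-catenin gene Ctnnb1 (450 ± 16.0 TPM) and Wnt7b (68.9 ± 6.06 TPM), and with the receptor gene Fzd4 lowest at 1.21 ± 0.170 TPM. Most of these genes are also made by neural cells. A second list of 16 further barrier genes had a median of 14.8 ± 1.61 TPM, with 13 at 1 TPM or more in both. It was led by the glucose carrier gene Slc2a1 (83.0 ± 0.714 TPM) and Itm2a (78.4 ± 7.62 TPM), while the efflux pump gene Abcc4 was lowest at 0.82 ± 0.0141 TPM. The cell of origin of this list was not tested, so its median cannot be read as a level of vessels alone.

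The vascular ligands were low. Angpt1, the activating ligand of Tek, had 4.69 and 3.94 TPM in replicates 1 and 2, and Angpt2, its context-dependent antagonist, had 1.76 and 1.39 TPM, which puts Angpt1 2.67-fold and 2.84-fold above it. Pdgfb, which endothelium releases to draw in pericytes, had 1.37 and 1.36 TPM. Its receptor gene Pdgfrb exceeded it 5.37-fold and 4.95-fold.

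Vegfa, the central vessel growth factor (chromosome 17, 46016993 to 46032369, mm10), had 3.13 and 2.24 TPM, below its receptor Kdr by 4.51-fold and 6.29-fold. Of 6 measured relatives and co-receptors of the VEGF family, 5 reached 1 TPM in both libraries, led by Vegfb (28.2 ± 0.212 TPM) and the co-receptor Nrp1 (27.8 ± 0.672 TPM), with Vegfd lowest at 0.235 ± 0.0636 TPM.

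In the mural class 3 pericyte genes led. Rgs5, a G-protein regulator of pericytes, had 8.78 and 8.22 TPM in replicates 1 and 2. The ATP-sensitive potassium channel gene Kcnj8 had 7.69 and 7.78 TPM, and Abcc9, which encodes the subunit that Kcnj8 pairs with, had 1.45 and 1.26 TPM. These 2 genes lie 16248 bases apart on chromosome 6, yet Kcnj8 exceeded Abcc9 5.30-fold and 6.18-fold. Pdgfrb, the receptor that recruits pericytes, had 7.36 and 6.73 TPM, and Anpep, an aminopeptidase on pericytes and meningeal cells, had 1.18 and 0.66 TPM.

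The contractile genes were below Rgs5, Kcnj8 and Pdgfrb in both libraries, although Acta2 and Tagln were above Abcc9 and Anpep. Acta2, smooth muscle actin, had 3.32 and 5.69 TPM, Tagln, an actin-binding protein of smooth muscle, had 1.82 and 2.5 TPM, and Des, the muscle intermediate filament, had 0.94 and 0.65 TPM on 47 and 33 counts. Of the forkhead factors that mural cells need, Foxf2 had 2.44 and 2.77 TPM and Foxc1 had 0.82 and 1.39 TPM. Both sit on chromosome 13 beside Foxq1 of the barrier class, with gaps of 64840 bases between Foxq1 and Foxf2 and 175230 bases between Foxf2 and Foxc1. Acta2 and Tagln are classical targets of serum response factor, which binds CArG boxes (CC, then 6 bases of A or T, then GG). No member had an exact CArG box in its window (1.47% of windows did), and 5 had one with 1 mismatch among those 6 bases (8.59% of windows). These were the identity genes Egfl7, Eng and Kdr, the barrier gene Ocln, and Acta2. Acta2 was the only match among the 8 mural genes with a window, so the looser motif was not particular to contractile genes. It was present in Acta2 in 2 places. Those 2 lie at 84 to 75 and at 34 to 25 bases before the RefSeq start, inside the first exon of the GENCODE M21 model, and are shown in capitals, minus strand, from chr19:34255438-34255467 and chr19:34255388-34255417.
Acta2, distal box: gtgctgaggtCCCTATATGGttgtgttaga
Acta2, proximal box: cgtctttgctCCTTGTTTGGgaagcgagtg

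Neighbouring lists place the mural genes. Of 9 other pericyte genes 8 reached 1 TPM in both libraries, with a median of 1.58 ± 0.0849 TPM, from Vtn (38.4 ± 8.20 TPM) and Mcam (13.4 ± 0.431 TPM) down to the brain pericyte gene Atp13a5 (0.195 ± 0.0495 TPM). Of 6 smooth muscle genes 3 reached 1 TPM: the light chain gene Myl9 (23.6 ± 0.0707 TPM) and Smtn (18.2 ± 0.0849 TPM) led, and the myosin gene Myh11, a marker of mature smooth muscle, was lowest at 0.095 ± 0.0778 TPM.

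Markers of other cells that can carry vascular genes were present. Of 7 meningeal fibroblast genes, cells that also make Foxc1 and Anpep, 6 reached 1 TPM, led by Col3a1 (82.8 ± 2.60 TPM) and Lum (29.3 ± 3.99 TPM). Of 6 megakaryocyte genes, cells that also make Vwf and Pecam1, 3 did, led by Pf4 (19.1 ± 2.11 TPM) and Itga2b (2.77 ± 0.580 TPM). Among them Pf4 stood well above the rest. Of 8 microglial genes 7 did, with C1qb highest (16.4 ± 0.502 TPM). Of 4 lymphatic genes 3 did, although Pdpn (50.6 ± 2.39 TPM) and Prox1 (9.45 ± 0.827 TPM) are also neural genes, and Ccl21a was listed at 0 and 0.95 TPM in replicates 1 and 2. How much of each member comes from these cells was not tested.

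**Figure D2:**
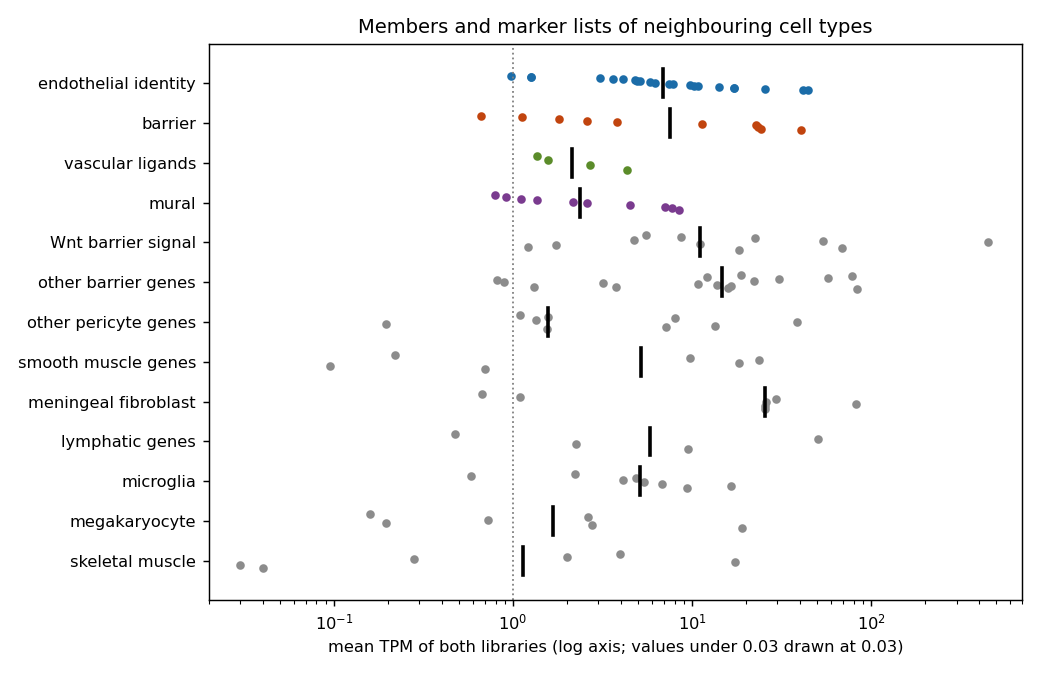
Mean TPM of both libraries for each member of the 4 vascular classes (coloured points) and of 9 further lists (grey points), on a log axis, with a black bar at each median and a dotted line at 1 TPM. The bars of endothelial identity (6.85 TPM) and barrier (7.55 TPM) lie to the right of those of the mural (2.38 TPM) and ligand (2.13 TPM) classes, and meningeal fibroblast genes stand higher at 25.7 TPM.

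Further genes of endothelial fate were mostly present as well. Of 12 further endothelial transcription factor genes 10 reached 1 TPM in both libraries, led by Tcf4 (311 ± 6.09 TPM) and Mef2c (22.8 ± 1.90 TPM), which neurons also make. Etv2, which starts the endothelial lineage earlier in development, had a count of 0 in both, which allows up to 0.142 and 0.13 TPM in replicates 1 and 2 for counting error. Of 10 arterial genes 9 reached 1 TPM, with a median of 4.17 ± 0.919 TPM, led by Hey1 (42.1 ± 0.686 TPM) and Efnb2 (35.8 ± 1.62 TPM), with the kinase gene Bmx lowest at 0.095 ± 0.0636 TPM. All 5 venous genes did, with a median of 12.1 ± 0.276 TPM, led by Nr2f2 (64.4 ± 16.3 TPM) and Nrp2 (19.8 ± 5.45 TPM), with the kinase gene Ephb4 lowest at 7.78 ± 0.976 TPM. Several of these are neural genes too, and Emcn counts both as a member and as a venous gene.

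Between the libraries the vascular genes as a group moved little. For 39 members with a mean count of at least 100, the median log2 ratio of TPM (replicate 1 over replicate 2) was 0.02, beside 0.11 for the 11967 protein-coding genes with that count. With counts scaled by TMM, which takes out the general shift, the medians were -0.12 for the members and -0.01 for all genes. The members therefore sat about 0.1 below all genes on either scale, but their own sign turns with the scaling: 22 of 39 (56.4%) were higher in replicate 1 by TPM, where 76.1% of all genes were, and 9 of 39 by TMM, where 47.7% were.

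Differences of 1.5-fold or more were found for 3 of the 39 members (7.69%), where 2.67% of all genes had one, and all 3 were higher in replicate 2 (2.26% of all genes were that much higher in replicate 1 and 0.409% in replicate 2). The share of all genes changes with depth, being 8.56% at a count minimum of 10. It was not computed within the range of counts of the members, so 7.69% and 2.67% are not matched for depth. Acta2 was 1.71-fold higher in replicate 2 on 124 and 232 counts, Foxc1 1.70-fold on 70 and 130 counts, and Vwf 1.54-fold on 382 and 452 counts. The deposited TPM intervals did not overlap for 4 of the 39 (10.3%), namely Cldn5, Ramp2, Acta2 and Foxc1, again all higher in replicate 2. Of all genes, 30.3% had such intervals, 26.4% being higher in replicate 1 and 3.88% in replicate 2. The share depends on depth, and among the 7451 genes with a mean count from 100 to that of the highest member it was 20.5%, with 2.38% higher in replicate 2.

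**Figure D3:**
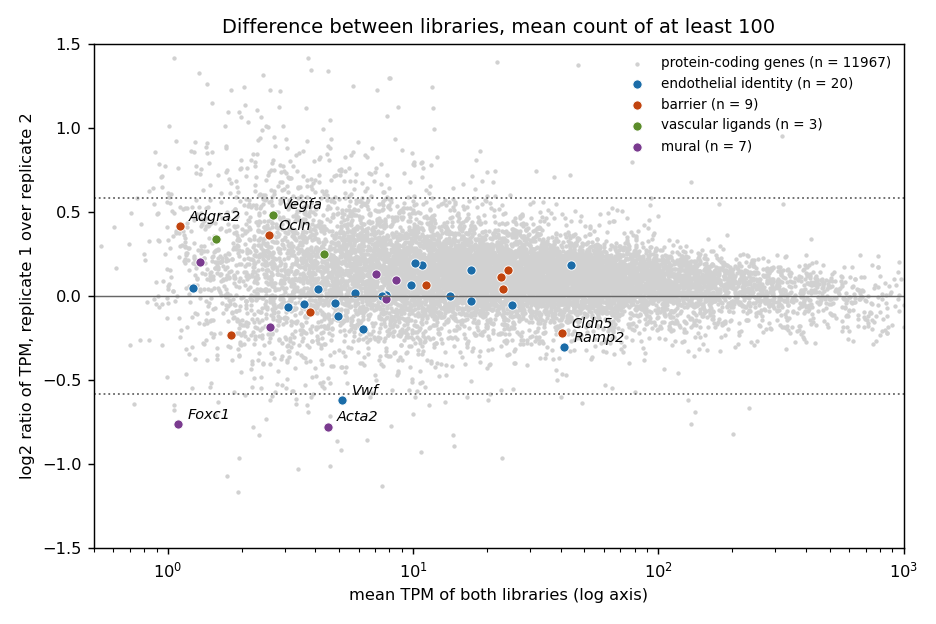
Log2 ratio of TPM, replicate 1 over replicate 2, against mean TPM on a log axis, for members with a mean count of at least 100 (coloured by class) over the 11967 protein-coding genes with that count (grey), with dotted lines at 1.5-fold. Acta2, Foxc1 and Vwf lie below the lower line, and no member lies above the upper one.

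Some of these differences depend on how reads were assigned to transcripts. For Vwf the TMM-scaled counts differed by -0.24 on the log2 scale, whereas the TPM differed by -0.62. Most of the gap was on Vwf-209, a processed transcript of 456 bases with 1.27 and 3.23 TPM in replicates 1 and 2, carried by 10.1 and 27.9 counts. The transcript of 8817 bases, which holds most counts and is not listed in GENCODE M21, had 1.65 and 1.67 TPM. These values lie above its own deposited intervals, which end at 1.6 and 1.55 TPM. The coding transcript Vwf-203, of 8834 bases, was listed at 0 with intervals up to 1.31 and 1.58 TPM. The division of reads between these long transcripts is therefore not fixed. In Anpep a short transcript also made the gap. There 1 count on a 178-base processed transcript made 0.57 of its 1.18 TPM in replicate 1, and its protein-coding transcripts had 0.62 and 0.65 TPM. Acta2 and Foxc1 have a single transcript each, and their TMM-scaled differences were -0.90 and -0.89. Among genes of meningeal fibroblasts, all 5 with a mean count of at least 100 were higher in replicate 2, with a summed level over the 7 genes of 182 and 199.9 TPM in replicates 1 and 2. The gaps were small for the collagen genes Col1a1, Col1a2 and Col3a1, at -0.03 to -0.06 on the log2 scale, and wider for Dcn (22.4 and 29.6 TPM) and Lum (26.4 and 32.1 TPM), while Alx4 was higher in replicate 1 (0.84 and 0.5 TPM). Other pericyte genes summed to 66.5 and 78.9 TPM in replicates 1 and 2, a gap that came mostly from Vtn with 32.5 and 44.1 TPM. Of the 6 with a mean count of at least 100, 4 were higher in replicate 2. Notch3 (7.91 and 6.33 TPM) and Cspg4 (1.65 and 1.47 TPM) were higher in replicate 1.

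The 6 other smooth muscle genes summed to 52.5 and 52.7 TPM, most of it from Myl9 and Smtn. Myh11 was higher in replicate 2, with 0.04 and 0.15 TPM on 6 and 23 counts, as was Tagln among the members. Tpm2 was slightly higher there too (9.53 and 9.96 TPM), and Myl9 and Smtn were nearly level. Cnn1 (0.75 and 0.64 TPM), Lmod1 (0.26 and 0.18 TPM) and the contractile member Des (0.94 and 0.65 TPM) were higher in replicate 1. The smooth muscle genes thus had no common direction. The contractile members together had 6.08 and 8.84 TPM. The skeletal muscle list summed to 39.97 and 7.18 TPM, a gap that came mostly from Actc1 with 32.4 and 2.22 TPM, the only gene of that list with a mean count of at least 100. Acta1 (2.6 and 1.42 TPM) and Tnnt1 (4.75 and 3.17 TPM) were higher in replicate 1 as well. Ttn was slightly higher in replicate 2 by TPM (0.24 and 0.32) but higher in replicate 1 by counts (112 and 56). Myod1 had 0.03 and 0.05 TPM on 1 and 2 counts only. The muscle factor gene Myog had a count of 0 in both, which allows up to 0.0967 and 0.0887 TPM. Choroid plexus genes also differed, with sums of 484 and 254 TPM. The part of these cells in the differences of the members was not tested.

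The level of Ramp2 is uncertain. It shares 1103 exon bases on the same strand with Vps25, an endosomal sorting gene with 91.4 and 75.8 TPM. Its leading transcript Ramp2-205 is a retained intron with 22.1 and 18.02 TPM in replicates 1 and 2, or 59.7% and 39.3% of the gene, and its protein-coding transcripts together had 11.9 and 23.6 TPM. Transcripts annotated as noncoding made up at least 20% of 4 of the 40 members at 1 TPM or more (10.0%), namely Ramp2, Vwf, Flt1 and Egfl7, beside 23.7% of the 12665 protein-coding genes at that level. In all, 13 members have exons that overlap another gene, most on the opposite strand, such as Tagln with Pcsk7 (15.4 and 11.8 TPM), Adgra2 with Brf2 (15.6 and 14.3 TPM) and Eng with Fpgs (13.2 and 11.6 TPM). The sources used here do not state a strand setting, so reads of such pairs may not be separated.

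Flt1 was divided between a full receptor and a short form. Transcript Flt1-202 encodes 1333 amino acids, whereas Flt1-203 encodes 688, stops before the membrane span and corresponds to the soluble form that binds VEGF outside the cell. The short form had 1.77 and 2.15 TPM in replicates 1 and 2, and the full form 1.75 and 1.55 TPM. The short form therefore made up 50.3% and 58.1% of the coding transcripts, a mean of 54.2 ± 5.53% (SD, n = 2), and the deposited intervals of the 2 forms overlapped in replicate 1 but not in replicate 2. A noncoding transcript, Flt1-201, had 2.29 and 2.83 TPM. The coding sequences of both forms are the same up to base 1972 and part there, as shown by the 30 shared bases in lower case and the next 45 in capitals, from the GENCODE M21 transcripts.
Flt1-203, short form: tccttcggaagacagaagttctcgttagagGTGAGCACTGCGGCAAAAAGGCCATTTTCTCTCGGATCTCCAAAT
Flt1-202, full form: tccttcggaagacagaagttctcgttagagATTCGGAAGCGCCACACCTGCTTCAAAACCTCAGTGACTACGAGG

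Vegfa is spliced into forms that differ in how tightly they bind the matrix. The VEGF120 type, which lacks an inner segment of the coding sequence and diffuses freely, had 1.42 and 1.71 TPM in replicates 1 and 2. The VEGF164 type, which has that segment, had 0.94 and 0.31 TPM. The VEGF188 type, with a further segment, was listed at 0 in both. The VEGF120 type was thus 60.2% and 84.7% of the coding transcripts, a mean of 72.4 ± 17.3% (SD, n = 2). The counts behind these shares are small (88.5 and 120 for the VEGF120 type, 69.9 and 24.9 for the VEGF164 type), and the deposited intervals of single transcripts are wide, reaching for Vegfa-202 from near 0 to 1.30 TPM in replicate 1. The order of both types held in each library, but the size of the share is poorly fixed. Vegfa-211 has another length in the deposited tables than in GENCODE M21, whose coding structure is used here. The coding sequences part after base 953, where the capitals begin.
Vegfa-202, VEGF164 type: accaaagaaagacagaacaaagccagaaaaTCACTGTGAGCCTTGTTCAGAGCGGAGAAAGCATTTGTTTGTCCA
Vegfa-211, VEGF120 type: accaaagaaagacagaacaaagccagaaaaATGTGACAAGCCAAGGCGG

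**Figure D4:**
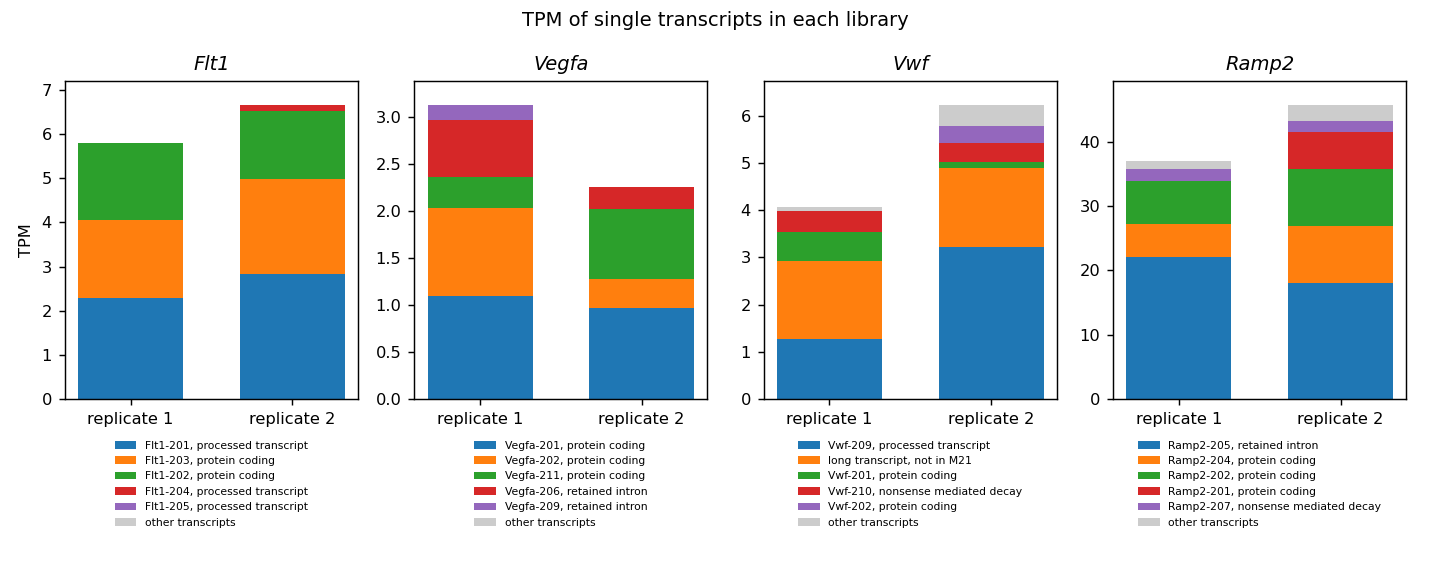
TPM of single transcripts of Flt1, Vegfa, Vwf and Ramp2, stacked, with replicate 1 on the left and replicate 2 on the right of each panel. Each panel has its own axis from 0. The short and full coding forms of Flt1 are of similar size, Vwf-209 carries the gap of Vwf, and the retained intron Ramp2-205 is the largest block of Ramp2.

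Of all 46 members, 15 have a single annotated transcript, Cldn5, Cdh5, Kcnj8 and Angpt1 among them. Of the 31 with several, 25 had the same leading transcript in both libraries. The counts were not whole numbers, beyond a tolerance of 0.005, for 7 members (Ramp2, Nos3, Vwf, Sox17, Abcb1a, Foxq1 and Angpt1), whose reads were in part shared with other genes.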

How the data were processed

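Total RNA longer than 200 bases was sequenced from 2 forebrain libraries, which the labels place in 1 group. Per the file headers and a deposited metadata text, reads were aligned to mm10 transcripts of GENCODE M4 and summarised in columns in the style of RSEM. An aligner, a software version and a strand setting are not stated there. The deposited expected counts are the authors' estimates per gene or transcript, with shared reads divided. The deposited TPM values are the authors' relative abundances per effective length, with a second column of posterior means. The deposited FPKM values were used only in an alternative, rescaled to the total of TPM. The deposited percent column (share of a transcript in its gene) was not printed, and shares were recomputed from TPM. The level of the deposited TPM intervals is not stated.

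Members and lists were chosen with earlier results of these data known. Symbols, transcript types and coordinates came from GENCODE M21 on the same assembly. Levels are means of both libraries with the SD, and class levels are medians over members. A count of 0 was taken to allow 3 counts. Ratios between libraries used genes averaging 100 or more expected counts, without a pseudocount. Counts were rounded for TMM (edgeR 4.0.16) and size factors (DESeq2 1.42.0) in R 4.3.3, which served only for scaling. Python 3.11.15 with pandas 2.3.3, numpy 2.4.6 and matplotlib 3.10.9 did the rest. The ratio step was tested on simulated data. Alternatives were other thresholds, pseudocounts, scalings, estimates and class memberships, and leaving out each library. Every member is named, and of each other list at most the 2 highest genes and the lowest, with Myog, Ccl21a, the overlapping genes and the genes set beside the gaps of Acta2 and Foxc1 singled out after their values were seen.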

Additional observations from a re-analysis of the deposited data

How the results depend on the processing

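No paired analysis was possible because both libraries belong to 1 group. Of 77 alternatives to 13 results, 59 stayed within the spread between libraries (for counts, within 1.5 times, and for the median log2 ratio, within 0.1). Some of these could hardly move. Rescaled FPKM is TPM in another form, and a count minimum of 10 removed no member from the medians. Leaving out a library always keeps a class difference or an isoform share within this limit. The 59 is therefore not a measure of robustness. Taking the mean of log2 values over members gave 5.51 TPM for all members, 7.47 TPM for identity genes, 7.13 TPM for barrier genes and 2.83 TPM for mural genes. With Foxf2 and Foxc1 as barrier genes the barrier median was 3.21 TPM, the mural median 3.33 TPM, and their differences from identity genes -0.865 and -0.930 on the log2 scale. Without Plvap the barrier median was 3.81 TPM and its difference -0.705. A pseudocount of 0.1 put the mural difference at -1.495. Without each library in turn, the median of all members ran from 4.72 to 5.43 TPM, identity genes from 6.65 to 7.07, barrier genes from 7.49 to 7.62, ligands from 1.82 to 2.45 and mural genes from 2.13 to 2.64, and 42 members reached 1 TPM in each library taken alone. The barrier difference ran from -0.064 to 0.011 and so has no fixed sign, and the mural one from -1.288 to -1.149. The short Flt1 share ran from 50.3% to 58.1% and the VEGF120 share from 60.2% to 84.7%. The count of members 1.5-fold apart was 5 of 46 (10.9%) with a count minimum of 10 or 0 (Anpep and Esm1 join), beside 8.56% and 13.9% of all genes. On log2(TPM + 1) it was 1 of 39 (Acta2), beside 1.31% of all genes. With counts scaled by TMM or by size factors it was 2 of 39 (Acta2 and Foxc1), beside 1.80% and 1.81%. The median log2 ratio was -0.119 with TMM and -0.121 with size factors. Counting only protein-coding transcripts, chosen after seeing the data, gave a barrier median of 7.38 TPM and 38 members at 1 TPM in both libraries. There 3 members were 1.5-fold apart, with Ramp2 in place of Vwf, and no share of all genes was computed. Vwf (0.63 and 0.48 TPM in replicates 1 and 2) fell under 1 TPM there in both libraries, and Erg (0.22 and 1 TPM) in replicate 1 only. GENCODE M21 does not list their transcripts with most counts, which were left out with the noncoding ones. Few counts limit Esm1, Des, Anpep, Erg, Abcb1a and the Vegfa forms.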
